A study of Rattus norvegicus with 4 samples.

Results

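The barcodes described here carried RNA of platelets and of a leukocyte together. They come from single-cell RNA-seq of blood of rats, in which each droplet's barcode is counted in UMIs (unique molecular identifiers, tags that mark RNA molecules). A barcode was kept if it held 500 UMIs or more from 200 genes or more, no more than 20% of them mitochondrial. Members were then chosen by their measured UMIs of platelet and lineage genes. A member needed at least 3 UMIs summed over the platelet genes Pf4, Nrgn, Treml1 and Clec1b. It also needed a lineage marker, either at least 2 UMIs of the T cell genes Cd3e, Cd3d and Cd3g, at least 2 of the B cell genes Cd79b and Ms4a1, or at least 1 of the monocyte gene Csf1r. In all, 4118 of 45986 kept barcodes met the rule, which is 8.95% of them and 10.6% of the 38894 barcodes with a leukocyte marker.

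The study used 40 rats in 4 groups of 10, and 1 blood library stands for each group. MSC-i.t rats had a traumatic spinal cord injury made by Allen's method and received umbilical cord mesenchymal stromal cells intrathecally at 10000000 cells/kg. MSC-i.v rats had the same injury and received the cells intravenously at 30000000 cells/kg, both routes at 72 hours and again at 7 days after injury. SCI rats were injured and Sham rats were the sham group. The number of rats behind each library and the time of the blood draw are not stated, and SCI alone bears a different time tag in its deposited data set name. With 1 library a group, differences between libraries have no replicate check, and every interval given covers counting error only. The libraries held 63133881 to 91124523 UMIs, with a median of 3808 to 5886 UMIs per kept barcode. Members numbered 1051 in MSC-i.t, 1361 in MSC-i.v, 318 in SCI and 1388 in Sham.

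Platelets have no nucleus and carry RNA inherited from megakaryocytes, so the platelet in a droplet shows as a small set of transcripts of secreted and surface proteins. Pf4 encodes a chemokine of the alpha granules, Treml1 a receptor stored in the same granules, Clec1b the podoplanin receptor CLEC-2, and Nrgn the calmodulin-binding protein neurogranin, best known from neurons and also present in human platelets. Activated platelets expose P-selectin, which binds PSGL-1 on leukocytes, and platelet-monocyte aggregates are a familiar finding in blood. In a droplet assay, RNA of a platelet and a leukocyte under the same barcode can come from a bound pair or from separate cells caught in the same droplet, and these cannot be told apart in a single barcode.

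The start regions of 2 of the rule genes are shown because Nrgn departed from the ratio of the platelet genes in natural killer barcodes, while Clec1b is 1 of the genes that kept it. Each run gives 250 bases before and 50 after the gene's start, from RefSeq, build GRCr8. Clec1b lies at chr4:164533859-164534158 on the plus strand and Nrgn at chr8:45452368-45452667 on the minus strand. Capitals mark GATAA, or its reverse complement TTATC, the core letters bound by GATA factors of the megakaryocyte lineage. Pf4 was not matched in the table.
Clec1b: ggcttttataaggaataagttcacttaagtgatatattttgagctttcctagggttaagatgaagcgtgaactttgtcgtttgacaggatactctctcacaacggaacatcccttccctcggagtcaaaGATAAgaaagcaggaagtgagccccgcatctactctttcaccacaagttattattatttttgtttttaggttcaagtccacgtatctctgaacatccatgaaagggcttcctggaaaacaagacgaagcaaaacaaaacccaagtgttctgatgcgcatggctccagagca
Nrgn: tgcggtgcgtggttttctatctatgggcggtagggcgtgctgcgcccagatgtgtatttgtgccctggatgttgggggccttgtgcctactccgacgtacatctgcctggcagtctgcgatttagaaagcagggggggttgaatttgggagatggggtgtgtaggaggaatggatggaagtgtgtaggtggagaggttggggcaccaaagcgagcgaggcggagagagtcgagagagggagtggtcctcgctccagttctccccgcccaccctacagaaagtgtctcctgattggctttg
The Clec1b window held 1 match and the Nrgn window 0, and 26.5% of the 33469 windows of this length in the table held at least 1. The window of the rule gene Treml1, not printed, also held 0, so the match did not set Nrgn apart from the other rule genes. Of platelet genes outside the rule, Gp9 had 1 match and Ppbp 0. A match is a description of letters, and its absence says only that these letters are not in this window.

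The members carried the markers that the rule asks for. Pf4 was present in 96.0% of members in MSC-i.t, 97.1% in MSC-i.v, 96.9% in SCI and 97.0% in Sham, and the median platelet sum was 6, 6, 7 and 8 UMIs in the same order. A single leukocyte lineage was marked in 956 of the 1051 MSC-i.t members, 1232 of the 1361 MSC-i.v members, 292 of the 318 SCI members and 1240 of the 1388 Sham members. The rest had markers of more than 1 lineage. Just inside the threshold, at 3 platelet UMIs, lay 203, 178, 43 and 157 T barcodes of MSC-i.t, MSC-i.v, SCI and Sham, and just outside it, at 2 UMIs, lay 344, 344, 111 and 276. Of the kept barcode sequences, 224 occurred in more than 1 library, where 114 would be expected if libraries drew barcodes independently, and 28 members had such a sequence.

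Csf1r barcodes carried platelet RNA several times as often as T and B barcodes in every library. The share was 34.6% in MSC-i.t (230 of 664 barcodes, exact Clopper-Pearson 95% interval 31.0 to 38.4%), 28.7% in MSC-i.v (471 of 1639, 26.6 to 31.0%), 21.6% in SCI (97 of 449, 17.9 to 25.7%) and 43.5% in Sham (502 of 1153, 40.7 to 46.5%). T barcodes had shares of 9.83% in MSC-i.t (737 of 7499), 7.88% in MSC-i.v (728 of 9233), 3.62% in SCI (211 of 5823) and 12.5% in Sham (754 of 6021). Before depth was matched, B barcodes followed the T barcodes closely, at 8.87% in MSC-i.t (184 of 2074), 8.38% in MSC-i.v (298 of 3558), 3.46% in SCI (36 of 1039) and 13.2% in Sham (283 of 2149). Over the 4 libraries Csf1r exceeded T by 23.7 ± 5.64 percentage points (SD, n = 4 libraries, higher in 4 of 4), where the SD here and later is taken over libraries of different groups. B exceeded T by 0.0055 ± 0.73 points and was higher in 2 of 4 libraries. Since the choice of members used the same UMIs, these shares describe the rule's own measure and are given without a test.

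The order of Csf1r and T barcodes was the same at a matched depth, and B barcodes then lay above T barcodes. Csf1r barcodes had a median of 5163.5, 3990, 4822 and 5865 UMIs in MSC-i.t, MSC-i.v, SCI and Sham, and T barcodes had 5813, 3909, 6074 and 5254. When each barcode was thinned to 2000 UMIs and shallower ones were left out (8717, 10614, 6416 and 7521 leukocyte-marked barcodes remaining), the share with platelet RNA was 19.9%, 16.6%, 13.1% and 26.8% in Csf1r barcodes and 3.37%, 3.97%, 1.51% and 5.73% in T barcodes, in the same order of libraries. B barcodes were shallower, with medians of 3245, 2174.5, 3392 and 2909 UMIs in MSC-i.t, MSC-i.v, SCI and Sham. Thinned alike, they had shares of 5.45%, 6.54%, 1.74% and 9.50%, above T barcodes in every library. Thinning takes fewer UMIs, platelet UMIs included, from these shallower barcodes, so their place above T barcodes is partly tied to UMI totals. Barcodes of 1 to 50 UMIs, which hold free RNA and cell fragments, had the platelet genes at 615 to 1076 CPM, a gene's share of all UMIs scaled to the same fixed total in every group. T barcodes with a single lineage had 1 platelet UMI in 13.8% of cases in MSC-i.t, so single UMIs were common and were not counted.

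**Figure D1:**
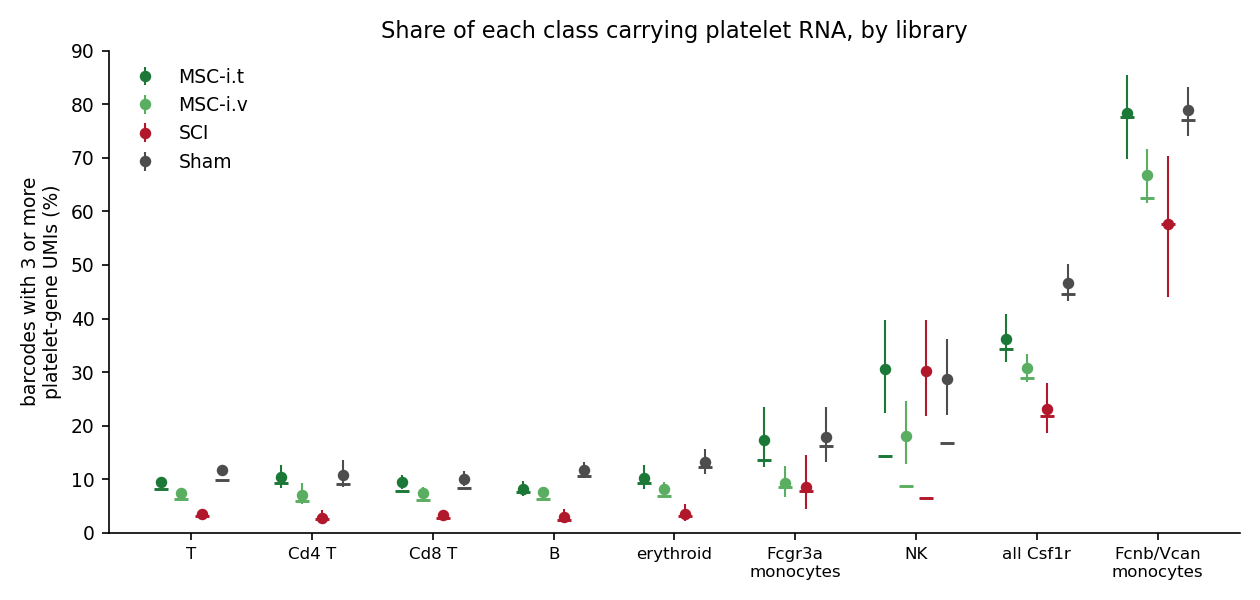
Share of single-lineage barcodes of each class with 3 or more platelet-gene UMIs, in percent, by library, with exact Clopper-Pearson 95% intervals; the short dash is the share without Nrgn in the sum. At this unmatched depth, T, B and erythroid barcodes lie close together in each library, Fcnb/Vcan monocytes lie between 57.6% and 78.9%, and NK barcodes drop when Nrgn is left out.

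The subsets, platelet amounts, UMI totals and gene profiles that follow were taken over single-lineage barcodes, which left 655, 624, 190 and 635 T members, 135, 226, 26 and 200 B members and 166, 382, 76 and 405 Csf1r members in MSC-i.t, MSC-i.v, SCI and Sham.

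Among Csf1r barcodes, those with markers of classical monocytes carried platelet RNA most often. In rodents, classical monocytes are recruited to inflamed tissue, while nonclassical monocytes, marked by Fcgr3a, Spn and Cx3cr1, patrol the vessel wall. Barcodes with at least 3 UMIs of Fcnb and Vcan (encoding M-ficolin and versican) and 0 of Fcgr3a are monocyte-like and called Fcnb/Vcan monocytes here for short, and those with Fcgr3a and 0 of Fcnb and Vcan are called Fcgr3a monocytes. These and the further subsets below were defined after values had been seen, on genes outside the platelet sum. Fcnb/Vcan monocytes carried platelet RNA in 78.4% of MSC-i.t barcodes (91 of 116, interval 69.9 to 85.5%), 66.8% of MSC-i.v barcodes (239 of 358, 61.6 to 71.6%), 57.6% of SCI barcodes (34 of 59, 44.1 to 70.4%) and 78.9% of Sham barcodes (262 of 332, 74.1 to 83.2%). Fcgr3a monocytes did so in 17.3% of MSC-i.t barcodes (33 of 191), 9.24% of MSC-i.v barcodes (39 of 422), 8.57% of SCI barcodes (12 of 140) and 17.9% of Sham barcodes (42 of 234). The lowest Fcnb/Vcan share thus lay above the highest Fcgr3a share.

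The difference between the monocyte types averaged 57.2 ± 5.67 percentage points (SD, n = 4 libraries, higher in 4 of 4). Platelet-free Fcgr3a monocytes were shallower, with a median of 2793 to 3989 UMIs, against 5770 to 8909 in platelet-free Fcnb/Vcan monocytes. After thinning to 2000 UMIs, the share with 3 or more platelet UMIs was 61.7% (115 barcodes), 44.3% (357), 45.8% (59) and 56.3% (332) in Fcnb/Vcan monocytes of MSC-i.t, MSC-i.v, SCI and Sham. In thinned Fcgr3a monocytes it was 9.14% (186), 5.38% (390), 6.77% (133) and 12.8% (226).

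Subsets of T cells and B cells lay closer together. Helper-type T barcodes with Cd4 and no Cd8 had shares of 10.4%, 7.11%, 2.80% and 10.8% in MSC-i.t, MSC-i.v, SCI and Sham, and Cd8 T barcodes had 9.41%, 7.49%, 3.25% and 10.0%. B barcodes with Fcer2 or Fcmr, markers of mature B cells, had 8.17%, 7.72%, 2.96% and 11.7%. Erythroid barcodes, with at least 30% hemoglobin UMIs and no lineage marker UMI, had 10.3% (79 of 766), 8.22% (166 of 2019), 3.52% (20 of 568) and 13.2% (115 of 873). These shares were near those of T and B barcodes, but at unmatched depth: erythroid medians were 8094 to 11789 UMIs and B medians 2050 to 3233. Thinned to 2000 UMIs, erythroid barcodes had 2.63%, 1.69%, 1.23% and 3.11%. T barcodes then had 3.51%, 3.71%, 1.37% and 5.22% and B barcodes 5.40%, 6.36%, 1.59% and 9.41%, both above erythroid barcodes in every library. Thinning keeps a smaller part of the platelet UMIs in a deeper barcode, so this order is partly tied to the classes' UMI totals. The size of that part was not tested. A small group of T barcodes with at least 3 UMIs of Tyrobp, the adaptor DAP12 of myeloid and natural killer receptors, stood higher, at 42.6% (23 of 54) in MSC-i.t, 21.3% (16 of 75) in MSC-i.v, 23.8% (5 of 21) in SCI and 38.2% (29 of 76) in Sham. T barcodes with 0 Tyrobp UMIs had 9.07%, 7.04%, 3.45% and 11.1%. Thinned to 2000 UMIs, the shares were 9.26%, 6.76%, 4.76% and 9.21% with Tyrobp and 3.49%, 3.59%, 1.41% and 5.05% without.

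Barcodes with natural killer markers had at least 2 UMIs of Ncr1 and Klrd1, no lineage marker UMI and under 10% hemoglobin UMIs. They passed the platelet threshold often, and Nrgn gave a large part of their platelet sum. Their share was 30.5% in MSC-i.t (36 of 118), 18.1% in MSC-i.v (33 of 182), 30.3% in SCI (33 of 109) and 28.7% in Sham (48 of 167). Without Nrgn in the sum it was 14.4%, 8.79%, 6.42% and 16.8%. Fcnb/Vcan monocytes kept 77.6%, 62.6%, 57.6% and 77.1% without Nrgn, and T barcodes, multi-lineage ones included, kept 8.63%, 6.80%, 3.37% and 10.7%, where they had 9.83%, 7.88%, 3.62% and 12.5% with it. The share of Tyrobp-rich T barcodes also fell, to 20.4% (11 of 54), 16.0% (12 of 75), 9.52% (2 of 21) and 25% (19 of 76). In MSC-i.v it fell from 21.3%, a smaller drop than that of the natural killer barcodes there.

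The make-up of the platelet sum shows the same split. In T members Pf4 gave 64.4%, 62.8%, 66.6% and 63.5% of the platelet-gene UMIs and Nrgn 16.5%, 16.7%, 14.6% and 18.1% in MSC-i.t, MSC-i.v, SCI and Sham. In Fcnb/Vcan monocyte members Pf4 gave 64.5%, 65.2%, 69.8% and 62.5% and Nrgn 15.8%, 15.4%, 12.9% and 17.8%. Platelet-only barcodes, which had at least 3 platelet UMIs making up at least 1% of all their UMIs and no lineage marker UMI, had 67.6%, 65.1%, 67.9% and 64.3% Pf4 and 14.7%, 16.2%, 14.2% and 17.5% Nrgn. These 3 classes thus held the platelet genes in nearly the same ratio, in libraries that differed in number of members. In natural killer barcodes past the threshold, Nrgn gave 47.7%, 44.6%, 60.1% and 38.8% of the UMIs.

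**Figure D2:**
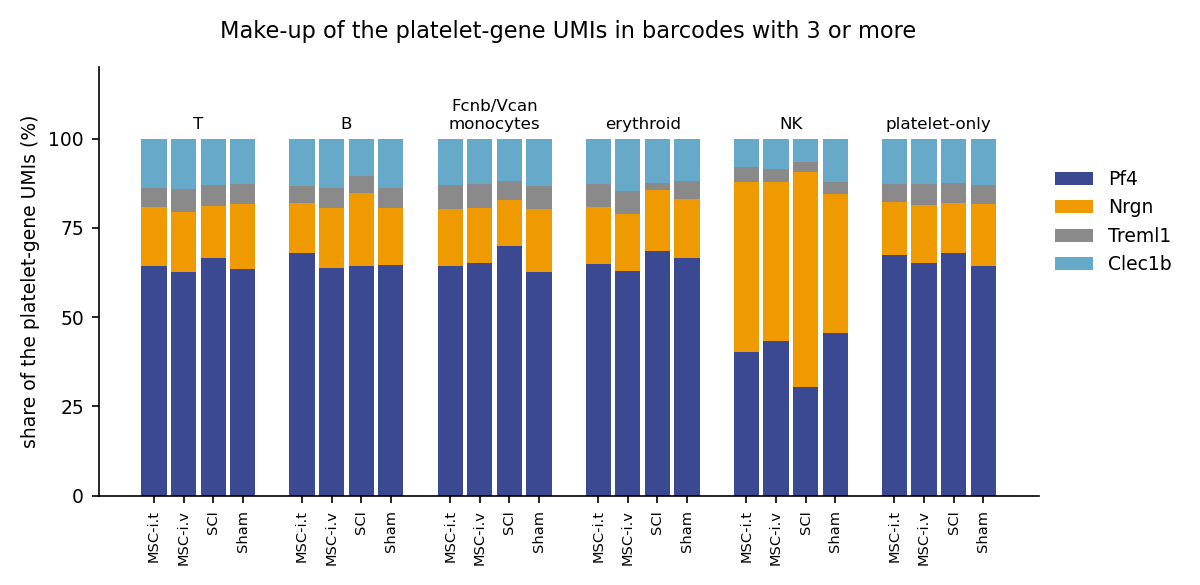
Share of each of the 4 platelet genes, in percent, among their summed UMIs in barcodes with 3 or more such UMIs, by class and library. The bars of T, B, Fcnb/Vcan monocyte and erythroid barcodes resemble those of platelet-only barcodes, while NK barcodes have 38.8% to 60.1% Nrgn.

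The amount of platelet RNA per member also differed by type. Fcnb/Vcan monocyte members had a median of 34, 14, 28 and 19 platelet-gene UMIs in MSC-i.t, MSC-i.v, SCI and Sham. T members had 5, 5, 6 and 6, B members 5, 5, 5 and 6, and Fcgr3a monocyte members 6, 4, 6.5 and 10. Platelet-only barcodes had 6, 5, 6 and 6. At least 30 such UMIs were found in 56.0%, 24.7%, 47.1% and 31.3% of Fcnb/Vcan monocyte members, in 4.12%, 1.92%, 4.21% and 4.09% of T members, and in 3.98%, 2.81%, 5.27% and 4.35% of platelet-only barcodes. A T or B member thus held about the platelet-gene UMIs of a platelet-only barcode, and a Fcnb/Vcan monocyte member held several times as many. The level of platelet RNA in a member is not independent of the threshold, which removes values under 3 in all of these classes alike.

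**Figure D3:**
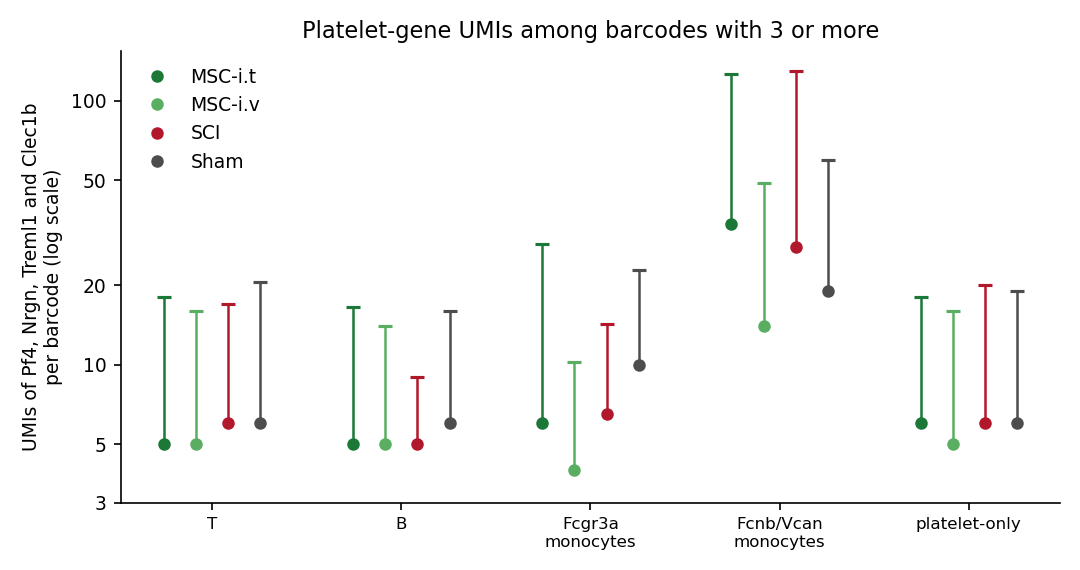
Platelet-gene UMIs per barcode (log scale) among barcodes with 3 or more, by class and library; points are medians and dashes the 90th percentile. Medians of T and B members are 5 or 6, as in platelet-only barcodes, and those of Fcnb/Vcan monocytes lie between 14 and 34.

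Members had higher median UMIs than platelet-free barcodes in both T cells and Fcnb/Vcan monocytes. T members had medians of 6072, 3986.5, 6058.5 and 5370 UMIs in MSC-i.t, MSC-i.v, SCI and Sham, against 5659, 3779.5, 6033 and 5086 in T barcodes without platelet UMIs. Fcnb/Vcan monocyte members had 10195, 6298, 9738 and 8693.5, against 8909, 5770, 6396 and 8500.5 without. Members of the Csf1r class outside both monocyte types that had at least 30 platelet UMIs were smaller, with medians of 1100.5 (20 barcodes), 830.5 (18), 1112 (9) and 999 (27) UMIs. Platelet-gene UMIs made up at least 1% of all UMIs in 26 of 166 single-lineage Csf1r members of MSC-i.t, 28 of 382 of MSC-i.v, 17 of 76 of SCI and 45 of 405 of Sham. At 1 Csf1r UMI, the lowest that the rule takes, 33.1%, 24.9%, 20.4% and 35.7% of all Csf1r barcodes, multi-lineage ones included, carried platelet RNA. At 2 Csf1r UMIs the shares were 30.2%, 32.0%, 30% and 61.3%, at 3 to 4 UMIs 30.1%, 32.9%, 17.4% and 45.2%, and at 5 or more 38.2%, 26.0%, 22.3% and 42.9%, with no steady order from few to many.

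The expectation from random doublets used the barcodes that carried T and B markers together, 392 in MSC-i.t, 479 in MSC-i.v, 163 in SCI and 364 in Sham, to estimate how many droplets cells were spread over. The platelet pool was every barcode with 3 or more platelet UMIs that met none of the lineage criteria, at any UMI total, 4686 in MSC-i.t, 5000 in MSC-i.v, 1937 in SCI and 5028 in Sham, with medians of 157 to 205 UMIs, most of them below the 500 UMIs that a kept barcode needs. T barcodes with platelet RNA numbered 737 observed and 886 expected in MSC-i.t, 728 observed and 673 expected in MSC-i.v, 211 observed and 304 expected in SCI, and 754 observed and 852 expected in Sham. Observed over expected was 0.83 in MSC-i.t (exact Poisson 95% interval 0.77 to 0.89), 1.08 in MSC-i.v (1.00 to 1.16), 0.69 in SCI (0.60 to 0.79) and 0.89 in Sham (0.82 to 0.95). These intervals cover the observed count only and take the expectation as exact. The count of barcodes with T and B markers behind it had a Poisson interval of 0.91 to 1.09 times its value in MSC-i.v and 0.85 to 1.17 times in SCI. The T ratios thus lay between 0.69 and 1.08, and the ratio for B barcodes was 0.75, 1.15, 0.66 and 0.93 and for erythroid barcodes 0.87, 1.13, 0.67 and 0.93.

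Csf1r barcodes exceeded the same expectation in every library, with ratios of 2.93 (2.57 to 3.34) in MSC-i.t, 3.94 (3.59 to 4.31) in MSC-i.v, 4.14 (3.36 to 5.05) in SCI and 3.08 (2.82 to 3.36) in Sham. In Fcnb/Vcan monocytes the ratio was 6.64 (5.35 to 8.16), 9.16 (8.03 to 10.4), 11 (7.65 to 15.4) and 5.58 (4.92 to 6.30) in the same order, with 91 observed and 13.7 expected in MSC-i.t and 34 observed and 3.08 expected in SCI. Fcgr3a monocytes had 1.46, 1.27, 1.64 and 1.27, and the lower interval bound was above 1 only in MSC-i.t, at 1.01. Since the interval leaves out the error of the expectation, a bound this close to 1 does not set MSC-i.t apart. Pairs of other cells do not all meet the expectation: barcodes with T and Csf1r markers came to 1.33, 1.32, 1.46 and 1.12 times it, and barcodes with T markers and at least 30% hemoglobin to 0.53, 0.81, 0.40 and 0.60 times.

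The estimate depends on which platelets are counted. With only those barcodes of the pool that pass the filters, T barcodes came to 14.9, 15.0, 9.28 and 12.0 times the expectation in MSC-i.t, MSC-i.v, SCI and Sham, and Csf1r barcodes to 52.5, 54.7, 55.3 and 41.8 times. With all platelet-positive barcodes as the pool, leukocyte-marked ones included, T barcodes came to 0.66, 0.83, 0.58 and 0.68 times. The Csf1r ratio divided by the T ratio lay between 2.70 and 8.66 over all libraries and settings tried. The pool and the droplet number cancel in this quotient, which is the Csf1r share over the T share. Settings that change only the pool or the droplet number could therefore not move it.

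**Figure D4:**
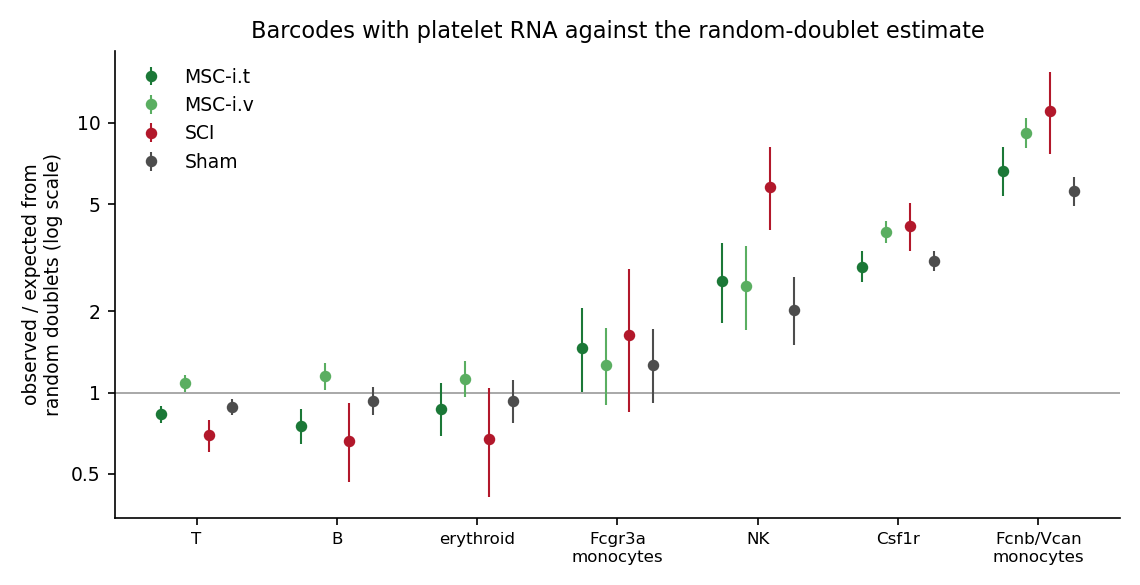
Observed over expected number of barcodes with platelet RNA (log scale) by class and library, with exact Poisson 95% intervals of the observed count; the grey line marks 1. T, B and erythroid barcodes lie between 0.66 and 1.15, and Fcnb/Vcan monocytes between 5.58 and 11.

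Between libraries, SCI had the smallest share of members and Sham the largest. Over all leukocyte-marked barcodes the share was 4.52% in SCI (318 of 7028, interval 4.05 to 5.04%) and 16.0% in Sham (1388 of 8673, 15.2 to 16.8%), a log2 ratio of -1.82 (Katz 95% interval -1.99 to -1.65). MSC-i.t had 10.9% (1051 of 9639, 10.3 to 11.5%) and lay above SCI by a log2 ratio of 1.27 (1.09 to 1.44). MSC-i.v had 10.0% (1361 of 13554, 9.54 to 10.6%) and lay above SCI by 1.15 (0.98 to 1.32). Against Sham, the log2 ratio was -0.55 for MSC-i.t and -0.67 for MSC-i.v. With 1 library per group, library and treatment cannot be told apart.

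Relative to the leukocyte-marked barcodes, the platelet pool followed the same order of libraries. The platelet pool was 27.6% of the number of leukocyte-marked barcodes in SCI and 58.0% in Sham, a log2 ratio of -1.07 (-1.15 to -1.0). MSC-i.t had 48.6% and lay above SCI by 0.82, and MSC-i.v had 36.9% and lay above SCI by 0.42. The log2 ratio of SCI over Sham was -1.79 in T barcodes, -1.93 in B barcodes, -1.90 in erythroid barcodes and -1.01 in Csf1r barcodes. In Fcnb/Vcan monocytes it was -0.45 (-0.78 to -0.13), and in natural killer barcodes 0.07 (-0.46 to 0.61). The natural killer value depended on Nrgn. Without Nrgn in the sum, the natural killer share was lower in SCI, at 6.42% (7 of 109, interval 2.62 to 12.8%), than in Sham, at 16.8% (28 of 167, 11.4 to 23.3%). The part of platelet number in the library differences was not tested. Platelet-only barcodes had a median of 200 UMIs in SCI and 182 in Sham, and a median of 6 platelet-gene UMIs in both.

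Next, members were set against barcodes of the same lineage with 0 platelet UMIs, as log2 ratios of CPM in each library. The rule used this contrast, so ratios are given without a test. A ratio with 0 UMIs on a side was taken with 0.5 UMIs there. In T members, most genes of platelets outside the rule that could be counted were higher. Of 30 genes on that list, 15 had at least 20 UMIs in members or platelet-free T barcodes of every library, and 12 of these were at least 2-fold higher in 4 of 4 libraries, where 0.736% of all 9101 genes so counted were (67 genes). The median log2 ratio of the 15 was 5.26, against 0.00 over all genes. A gene rare in platelet-free T barcodes is counted only if members hold enough of it. The 12 of 15 and the median are thus partly fixed by the filter. Gp9, a subunit of the von Willebrand factor receptor, had 130, 125, 44 and 172 UMIs in T members of MSC-i.t, MSC-i.v, SCI and Sham and 12, 18, 5 and 14 UMIs in the platelet-free T barcodes. Its log2 ratio was 6.51 ± 0.78 (SD, n = 4 libraries). Pla2g2a, a secreted phospholipase, had 5.63 ± 0.56, Myl9, a myosin light chain, 5.91 ± 0.45, and Npy, neuropeptide Y, 5.26 ± 0.49. Selp, encoding P-selectin, was the lowest of the list at -0.20 ± 0.09, with 10 to 42 UMIs in members.

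Outside the platelet list, F13a1, the A subunit of coagulation factor XIII, was the highest in T members. It had 183, 135, 68 and 176 UMIs in T members of MSC-i.t, MSC-i.v, SCI and Sham and a log2 ratio of 5.57 ± 0.45 (SD, n = 4 libraries). Lgalsl, a galectin-like protein, had 3.55 ± 0.50, Gucy1b3, a subunit of the nitric oxide receptor, 3.39 ± 0.33, and F5, coagulation factor V, 3.36 ± 0.45. Pld4, an exonuclease of plasmacytoid dendritic and B cells in human and mouse, had 3.15 ± 0.80 on 5 to 70 UMIs. Without Nrgn in the platelet sum, Pld4 had 2.30 ± 2.31, with 0 UMIs and a ratio of -1.10 in SCI. At the other end, Pex11g, Zfp688, Ctns, Dennd4b and Plscr4 had 0 to 7 UMIs in members of any library, and their mean log2 ratios of -1.56 to -1.26 rest on these. Only 0.011% of genes (1 gene) were at least 2-fold lower in 4 of 4 libraries. T cell genes differed little: the 11 of 16 list genes counted had log2 ratios of -0.20 to 0.03, and the 12 of 14 genes of activation and early response -0.28 to 0.19.

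T members were also set against a mixture of the platelet-free T profile and the platelet-only profile of the same library, weighted by the platelet genes outside the rule. The platelet part came to 3.08%, 3.60%, 3.54% and 3.70% of the UMIs in MSC-i.t, MSC-i.v, SCI and Sham, or 210, 168, 239 and 223 UMIs per T member. T members held 5986, 4776, 1836 and 5989 UMIs of the 4 rule genes, against 6285, 4729, 1912 and 6097 in the mixture. Against the mixture, 0.122% of the 4934 genes counted (6 genes) were at least 2-fold higher in 4 of 4 libraries and 0% (0) were at least 2-fold lower in 4 of 4. The highest by the mean were Irf8, a transcription factor of dendritic cells, at 2.57 ± 0.55, Cyb561a3 at 2.28 ± 0.20, Gzmk, granzyme K, at 2.13 ± 0.63, Tyrobp at 2.07 ± 0.42 and Capg, an actin-capping protein, at 1.84 ± 0.77 (SD, n = 4 libraries). The lowest was Naa60, an acetyltransferase, at -0.46 ± 0.34.

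Tyrobp, Gzmk and Irf8, which are genes of natural killer, myeloid or dendritic cells or of T cell subsets, had smaller mean log2 ratios over the 4 libraries when Nrgn was left out of the platelet sum, although Irf8 was slightly higher without it in MSC-i.t (2.71 in place of 2.56). Capg went the other way, at 2.04 ± 0.89 without Nrgn in place of 1.95 ± 0.83 with it. Tyrobp stood at 228, 230, 177 and 287 CPM in T members of MSC-i.t, MSC-i.v, SCI and Sham, against 25.5, 53.0, 22.4 and 50.3 CPM in platelet-free T barcodes. With Nrgn left out of the platelet sum, its log2 ratio was 2.19 ± 0.56 in place of 2.69 ± 0.47 (SD, n = 4 libraries). Gzma, granzyme A, stood at 48.6, 2.75, 68.6 and 35.3 CPM in T members, against 6.61, 4.62, 2.51 and 6.67 CPM in platelet-free T barcodes. Its log2 ratio was 1.03 ± 1.5 without Nrgn in place of 2.33 ± 2.29. In MSC-i.v it was lower in members, on 8 UMIs, at -0.75 with Nrgn and -1.20 without. In SCI, Irf8 had 46 UMIs in T members as in the rule and 6 without Nrgn. Cyb561a3 had 29 and 3 UMIs there and Pld4 5 and 0. Over the 4 libraries, the log2 ratio of Cyb561a3 was 1.65 ± 1.69 without Nrgn in place of 2.44 ± 0.17. The natural killer list summed to 834, 514, 751 and 685 CPM in T members, against 533, 463, 503 and 556 CPM in platelet-free T barcodes. The list of plasmacytoid dendritic cells, which holds Irf8, summed to 164, 139, 159 and 216 CPM in T members, against 85.9, 80.9, 87.3 and 99.1 CPM, and the monocyte list to 230, 439, 307 and 492 CPM, against 218, 301, 233 and 345 CPM. The hemoglobin genes summed to 24204, 63824, 23492 and 31699 CPM in T members, against 17117, 45910, 12236 and 31659 CPM. The part of these cells in the T ratios was not tested.

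In single-lineage B members, which numbered 26 in SCI, fewer genes could be counted than in T members. Of 6813 genes, 0.22% (15) were at least 2-fold higher and 0.0294% (2) at least 2-fold lower in 4 of 4 libraries. Pla2g2a had 238, 341, 29 and 425 UMIs in members of MSC-i.t, MSC-i.v, SCI and Sham and a log2 ratio of 5.58 ± 0.31, and Gp9 2.92 ± 0.61 (SD, n = 4 libraries). Off the platelet list, Fgl2, a fibrinogen-like protein, had 2.91 ± 0.51, Tsc22d1, a transcriptional regulator, 2.79 ± 0.74, Fcer1g, the Fc receptor gamma chain, 2.73 ± 1.66, and Rgs10, a regulator of G protein signalling, 2.05 ± 1.12. Of the 5 lowest, Coil, Zbtb43, Wdr20 and Qpctl had 0 to 6 UMIs in members, and Fkbp11, a peptidyl-prolyl isomerase, had 36, 23, 1 and 21 UMIs and a log2 ratio of -1.38 ± 1.58. Tyrobp had 4.30 in SCI and 1.06 to 1.87 in the other 3 libraries, and the natural killer list summed to 4118 CPM in SCI members, against 69.9 CPM in platelet-free B barcodes of SCI. The 9 of 11 B cell genes counted had log2 ratios of -0.39 to 0.22. Against the mixture, 0% of 762 genes were at least 2-fold higher and 0% at least 2-fold lower in 4 of 4 libraries, although Tyrobp was at 3.74 in SCI and 1.23 in MSC-i.v. The platelet part was 3.98%, 5.77%, 3.92% and 5.82% of the UMIs.

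Csf1r members differed from platelet-free Csf1r barcodes in their own monocyte genes and not only in platelet genes. Of 4411 genes, 2.54% (112) were at least 2-fold higher and 1.52% (67) at least 2-fold lower in 4 of 4 libraries. Of the 8 genes of classical monocytes, 7 were counted and 5 were at least 2-fold higher in 4 of 4, with a median log2 ratio of 2.19 against -0.15 over all genes. Vcan stood at 622, 578, 583 and 564 CPM in members of MSC-i.t, MSC-i.v, SCI and Sham, against 170, 116, 57.4 and 121 CPM in platelet-free barcodes. Fcnb, Fn1 (fibronectin), Cd14 (the endotoxin co-receptor) and Hopx (a homeodomain-only protein) had mean log2 ratios of 2.34, 2.19, 2.13 and 1.75. S100a8 and S100a9, the subunits of calprotectin, had 1.86 and 2.45, but in MSC-i.v only 0.16 and -0.11. Trem1, a receptor of the innate response, had 1.42.

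The 7 nonclassical genes counted, of 8, were lower in 4 of 4 libraries, where 37.1% of all 4411 genes were (1638 genes). Of the 7, 2 were at least 2-fold lower in 4 of 4, and their median log2 ratio was -1.12. Fcgr3a stood at 209, 133, 178 and 96.0 CPM in Csf1r members of MSC-i.t, MSC-i.v, SCI and Sham, against 843, 699, 665 and 619 CPM in platelet-free barcodes, a log2 ratio of -2.25 ± 0.36 (SD, n = 4 libraries). Spn, encoding CD43, had -1.66, Itgal, the integrin chain CD11a, -1.23, Nr4a1, a nuclear receptor needed for nonclassical monocytes in mouse, -1.12, and Csf1r itself -0.70. Of the 11 interferon-response genes counted, 10 were lower in 4 of 4 libraries, beside the 37.1% over all genes and a median log2 ratio of -0.15 over them. Rsad2 was at -1.44 and Ifit3 at -1.33, and 0 of the 11 were at least 2-fold lower in 4 of 4. By the rule for named genes the lowest also included Defb14 at -2.91, Ngfr at -2.17, Efnb2, encoding ephrin-B2, at -2.15, and Alox15, a lipoxygenase known from rabbit reticulocytes, at -2.14 with only 2 UMIs in SCI members. The hemoglobin genes summed to 24324, 37462, 18682 and 28308 CPM in members, against 62339, 72510, 65250 and 85856 CPM in platelet-free barcodes, so red cell RNA was lower beside these genes, and its part was not tested.

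The platelet genes off the rule were also high in Csf1r members. Pla2g2a stood at 1210, 622, 938 and 884 CPM in members of MSC-i.t, MSC-i.v, SCI and Sham, against 5.63, 10.3, 9.56 and 9.51 CPM in platelet-free barcodes. Tubb1, the platelet beta tubulin, had 66, 62, 25 and 101 UMIs in members and 0 in platelet-free barcodes of each library. F13a1 had 211, 227, 112 and 339 UMIs in members and 1, 3, 1 and 2 in platelet-free barcodes. Fhl1, a LIM-domain protein, had 71, 57, 27 and 79 UMIs in members and 0 in platelet-free barcodes of each library. Cd226, an adhesion receptor that platelets also carry, had 121, 132, 43 and 215 UMIs in members and 1, 8, 1 and 5 in platelet-free barcodes. Lgalsl had 32, 42, 24 and 77 UMIs in members and 0, 0, 1 and 0 in platelet-free barcodes, and Tsc22d1 had 298, 310, 104 and 507 and 6, 13, 5 and 10.

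Among Fcnb/Vcan monocytes alone, the ratios of the monocyte genes were smaller. Here the members were set against Fcnb/Vcan monocytes with fewer than 3 platelet UMIs, 25, 119, 25 and 70 barcodes in MSC-i.t, MSC-i.v, SCI and Sham. Of 2128 genes, 1.22% (26) were at least 2-fold higher and 0% (0) at least 2-fold lower in 4 of 4 libraries. The 7 classical genes counted had a median log2 ratio of 0.14, against -0.04 over all genes, and 0 of 7 were 2-fold higher in 4 of 4. Fcnb and Vcan are 2 of the 7, and barcodes on both sides were chosen by their UMIs, so their ratios were partly fixed by that choice. Of the genes that did not choose the barcodes, Cd14 had log2 ratios of 0.24, -0.10, 0.61 and -0.28 in MSC-i.t, MSC-i.v, SCI and Sham, and Lyz2, encoding lysozyme, 0.03, 0.13, 0.28 and -0.01. S100a9 ranged most, at -0.75, 1.32, 2.66 and -0.17. The activation and early response genes, 7 of 14 counted, had a median of -0.22, and the 4 of 14 inflammatory genes a median of -0.19.

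Outside the platelet list, F13a1 led these members as it led T and Csf1r members. It had 140, 169, 72 and 245 UMIs in members of MSC-i.t, MSC-i.v, SCI and Sham and 0, 3, 1 and 2 in monocytes with fewer than 3 platelet UMIs. Cd226 had 96, 107, 36 and 156 UMIs in members and 2, 4, 0 and 1 in the others. Tsc22d1 had a log2 ratio of 4.89 ± 0.60, the histone gene Hist1h2bcl1 3.52 ± 0.77, and Tax1bp1, an autophagy adaptor, 2.43 ± 0.60 (SD, n = 4 libraries). The lowest were G0s2, an inhibitor of a triglyceride lipase, at -1.55 ± 0.89, Ifitm1, an interferon-induced membrane protein, at -1.33 ± 0.96, Il1b, interleukin-1 beta, at -1.07 ± 0.54, Vav3 at -1.04 ± 0.82 and Nrp1, neuropilin-1, at -0.96 ± 0.54. Il1b had 58, 83, 23 and 175 UMIs in members. Each of these was lower in 4 of 4 libraries, but with as few as 25 barcodes on the platelet-poor side, and the sign is part of how they were chosen.

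**Figure D5:**
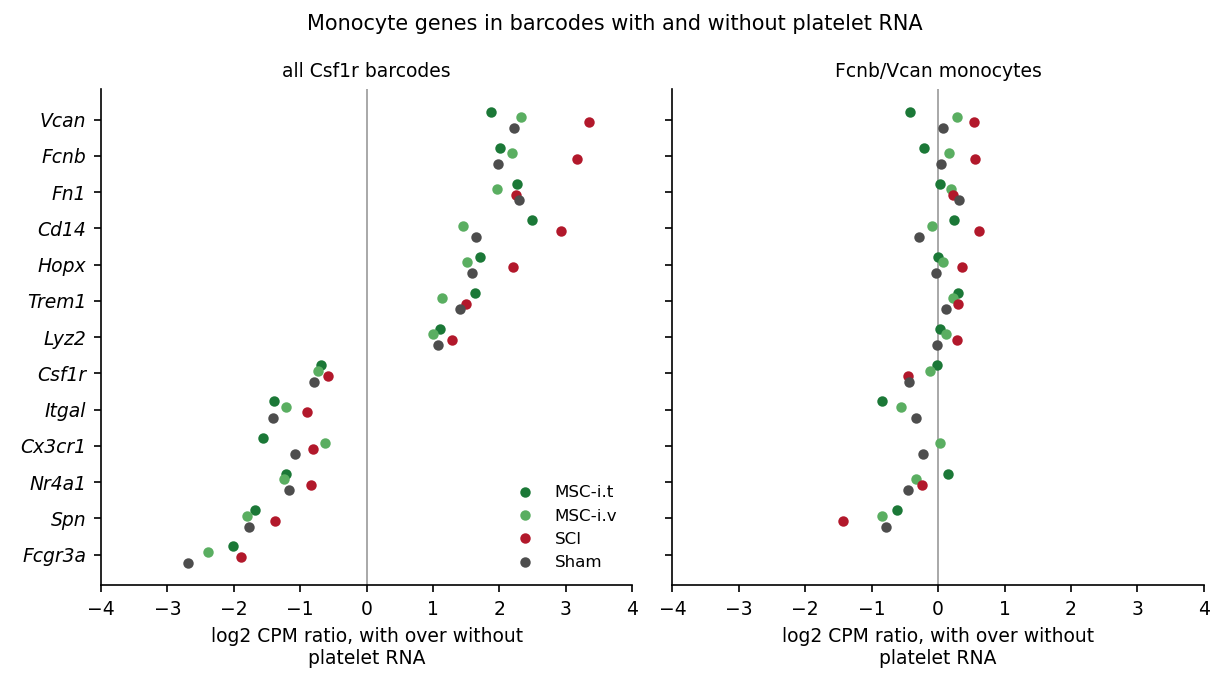
Log2 ratio of CPM in barcodes with platelet RNA over barcodes without, for 13 monocyte genes, 1 point per library with at least 20 UMIs on one side; left, all single-lineage Csf1r barcodes, right, Fcnb/Vcan monocytes alone. On the left Vcan to Lyz2 lie above 0 and Csf1r to Fcgr3a below 0 in 4 of 4 libraries; on the right Vcan and Fcnb, which chose these barcodes, and Cd14 scatter on both sides of 0.

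Few genes of Fcnb/Vcan monocyte members lay 2-fold off the mixture in 4 of 4 libraries. The platelet part was 12.1%, 7.56%, 12.4% and 7.47% of the UMIs in MSC-i.t, MSC-i.v, SCI and Sham, or 1345, 525, 1260 and 721 UMIs per member. Of 2401 genes, 0% were at least 2-fold higher and 0.0416% (1) at least 2-fold lower in 4 of 4 libraries. The lower gene was Eno3, the muscle-type enolase, at -1.77 ± 0.48, and the highest was Ass1, argininosuccinate synthase, at 1.06 ± 0.92 (SD, n = 4 libraries). In all Csf1r members, by contrast, 1.98% of 3335 genes (66) were at least 2-fold above and 0.93% (31) at least 2-fold below the mixture, led by Rnase2, a ribonuclease, at 2.87 and Cfd, complement factor D, at 2.84.

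Genes of T members were last compared between libraries, with the platelet-free T barcodes of the same libraries beside them. For SCI over Sham, 2.97% of 4844 genes (144) were at least 2-fold higher and 1.01% (49) at least 2-fold lower, on a median log2 ratio of 0.06. Cdv3 stood at 130 CPM in SCI (167 UMIs) and 6.80 CPM in Sham (26 UMIs), a log2 ratio of 4.26 (exact conditional binomial 95% interval 3.66 to 4.91), and platelet-free T barcodes gave 4.02. Sap30l, a corepressor subunit, had 4.41 in members and 4.18 in platelet-free barcodes, Dapk3, a kinase, 3.95 and 4.31, and Alyref, an mRNA export factor, 3.43 and 2.87. These genes were thus high in SCI in platelet-free T barcodes too. At the low end stood Fcnb at -4.65 (-9.98 to -2.13, on 1 UMI in SCI and 75 in Sham), Alox15 at -3.60, Fn1 at -3.58 (-5.88 to -2.0, with 3 UMIs in SCI) and Krt10, a keratin, at -2.07, where platelet-free T barcodes gave -2.20, -1.93, -1.75 and -0.47.

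For MSC-i.t over SCI, 0.655% of 5191 genes (34) were at least 2-fold higher and 3.51% (182) at least 2-fold lower in T members. Cdv3 had a log2 ratio of -4.54, Taf10, a subunit of the general factor TFIID, -3.89, Dapk3 -3.71 and Snx20, a sorting nexin, -3.68, with -4.65, -4.09, -4.64 and -3.54 in platelet-free T barcodes. Dmrtc2 led at 2.87, with 51 UMIs for MSC-i.t against 2 for SCI (interval 0.95 to 5.96), then Alox15 at 2.08, Mgst3, a glutathione transferase, at 1.56 and Tmcc2 at 1.52, where platelet-free T barcodes gave 0.42, 1.17, 0.28 and 1.02. For MSC-i.v over SCI, 0.688% of 3925 genes (27) were at least 2-fold higher and 3.95% (155) at least 2-fold lower, on a median shift of -0.20. Alox15 led at 4.67 (577 UMIs in MSC-i.v and 10 in SCI), then Tmcc2 at 2.56, Rhd, the rhesus antigen of red cells, at 2.46 and Cd52 at 2.27, where platelet-free T barcodes gave 2.30, 1.92, 1.96 and 1.98. Without barcodes of at least 10% hemoglobin, Rhd was at -0.019. All 7 erythroid genes counted were at least 2-fold higher in this comparison, in members with 63824 CPM of hemoglobin in MSC-i.v and 23492 CPM in SCI. Dapk3, Alyref, Csnk2a2, a casein kinase subunit, and Cdv3 were lowest at -4.75, -4.23, -3.39 and -3.32, with -4.32, -3.07, -2.86 and -3.50 in platelet-free T barcodes.

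Against Sham, T members of the treated libraries had fewer genes past 2-fold, with 0.0189% of 5283 genes (1) higher and 0.379% (20) lower in MSC-i.t, and 0.351% of 4840 genes (17) higher and 0.537% (26) lower in MSC-i.v.

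Fcnb/Vcan monocyte members had 3.17% of 4223 genes (134) higher and 4.14% (175) lower in SCI over Sham. For MSC-i.t over SCI, 1.86% of 2255 genes (42) were higher and 2.39% (54) lower, and for MSC-i.v over SCI 2.92% of 3190 genes (93) and 2.16% (69). Over Sham, MSC-i.t had 0.142% of 4224 genes (6) higher and 1.21% (51) lower, and MSC-i.v 0.118% of 4230 genes (5) and 0.426% (18). Cebpb, a transcription factor of monocytes, had 395 UMIs in SCI and 131 in Sham, a log2 ratio of 4.47 (4.18 to 4.76) with 4.78 in Fcnb/Vcan monocytes with fewer than 3 platelet UMIs, and Taf10 had 3.17 with 2.68. For MSC-i.t over SCI, Cebpb had -3.89 and Taf10 -4.29, with -4.33 and -3.30 in the monocytes with fewer than 3 platelet UMIs. For MSC-i.v over SCI they had -4.80 and -3.34, with -4.95 and -2.82. Ahsp, the alpha hemoglobin stabilizing protein, had 0 UMIs in 34 SCI members and 232 in 262 Sham members, beside hemoglobin genes at 1998 CPM in the SCI members and at 20327 CPM in the Sham ones. Cxcl10, an interferon-induced chemokine, had 64 UMIs in 91 MSC-i.t members and 0 in the same 34 SCI members.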

How the data were processed

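The deposited tables hold raw UMI counts for each gene in each barcode; per the file headers, Cell Ranger 4 made them. They list 25340 genes by 6794880 barcodes in each library, unfiltered. Per the submitters' processing notes, reads were placed on mRatBN7.2; the annotation is not given in the sources used here. The protocol in the labels describes a bulk preparation that single-cell matrices do not match, so nothing was taken from it. Members and gene lists were chosen with earlier results of these data known. Doublets were not removed, since the rule concerns barcodes with RNA of more than 1 cell. UMIs were summed per class and library with numpy 2.4.6, pandas 2.3.3 and scipy 1.17.1. Of the intervals, only those of CPM ratios were tested on simulated data. Shares have exact Clopper-Pearson, observed counts exact Poisson, share ratios Katz and CPM ratios exact conditional binomial 95% intervals. With 1 library a group, libraries were not tested against each other. A planned sign-flip test of shares between lineages is left out, since the rule used those shares and 4 libraries allow no p below 0.125. Gene profiles, subsets and platelet amounts used barcodes of a single lineage.

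The expected count of a class is its barcodes times the platelet pool divided by the droplet number, the last being T barcodes times B barcodes over barcodes with both. Genes were counted with at least 20 UMIs on one side in every library, or, between libraries, 50 UMIs and 5% of members in one. Zero counts entered ratios as 0.5 UMIs. Named genes are the 5 highest and 5 lowest mean log2 ratios with the same sign in 4 of 4 libraries, and the 4 highest and 4 lowest between libraries. Rule, hemoglobin, mitochondrial, ribosomal, receptor-segment, immunoglobulin and sex-linked genes and genes without their own symbol were left out. Subsets and their genes were picked after values were seen. Of 30 platelet genes listed outside the rule, 29 were matched.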

Additional observations from a re-analysis of the deposited data

How the results depend on the processing

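No paired comparison between groups was possible because each group is 1 library and the labels carry no replicate numbers. Of the values that answer a comparison, 88 alternatives kept the direction within the error, 28 moved and 4 reversed, and of the other values 291 kept theirs, 24 moved and 1 reversed. On the log2 scale, the share in MSC-i.t over Sham was -0.42 with a threshold of 2 platelet UMIs and -0.75 with 5, where MSC-i.v over Sham was -0.83. After thinning to 2000 UMIs, SCI over Sham was -2.08, MSC-i.v over SCI 1.51, MSC-i.t over Sham -0.89 and MSC-i.v over Sham -0.56. The B minus T difference in share was -0.27 points at 2 platelet UMIs, -0.014 with at least 1000 UMIs per barcode, -0.34 without multi-lineage barcodes and -0.0079 without shared barcode sequences. After thinning to 2000 UMIs, which takes more platelet UMIs from the deeper T barcodes, B barcodes lay above T barcodes in every library. They had 5.45%, 6.54%, 1.74% and 9.50% in MSC-i.t, MSC-i.v, SCI and Sham, against 3.37%, 3.97%, 1.51% and 5.73% in T barcodes. T barcodes over the random-doublet expectation, in MSC-i.t, MSC-i.v, SCI and Sham, came to 0.978, 1.18, 0.995 and 1.08 with 1 more lineage UMI required, and to 0.530, 0.520, 0.533 and 0.610 after thinning. They came to 14.9, 15.0, 9.28 and 12.0 with a pool of kept barcodes, to 0.664, 0.832, 0.577 and 0.677 with leukocyte-marked barcodes in the pool, and to 0.625, 0.820, 0.475 and 0.793 with the droplet number from T and Csf1r barcodes. Without multi-lineage barcodes Sham was at 0.823. Rhd in T members, MSC-i.v over SCI, was -0.019 on the log2 scale without barcodes of at least 10% hemoglobin, where it was 2.46 with them. Beyond what each alternative changes by construction, the cause was not tested. SCI had the fewest members of these classes, with 26 single-lineage B members and 34 Fcnb/Vcan monocyte members.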
